A study of Mus musculus with 32 samples.

Results

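Nephron progenitors leave their self-renewing state, gather into pretubular aggregates and turn into renal vesicles, the first epithelial stage of the nephron. Wnt4, Pax2, Pax8, Lhx1, Osr2, Tmem100 and Ccnd1 mark or act in this step, and these 7 genes were taken by name, with their Ensembl identifiers mapped to symbols, from the 55806 gene identifiers in the 4 count tables of the series. All 7 passed the filter on low counts in each comparison. 

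The study asked how mutations in the YEATS domain of ENL, a chromatin reader encoded by Mllt1 and mutated in some Wilms tumors, alter kidney development in the mouse. Polyadenylated RNA was sequenced from whole embryonic kidneys or from sorted cells that carried the tdTomato Cre reporter (tdT+), in 32 libraries of 11 groups. Mutant embryos carried 1 floxed mutant allele of Enl, either T1 (a small insertion) or T3 (a small deletion), which Cre switched on, and controls (ENLWT) carried Enl+/+ with the same Cre.

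Six2-TGC tg/+ is a bacterial artificial chromosome transgene that drives Cre in nephron progenitors and their descendants, and all Six2 groups carried it, controls included. Whole Six2 kidneys were taken at E18.5 from ENLWT, EnlT1/+ and EnlT3/+ embryos, 2 libraries each. Sorted tdT+ Six2-lineage cells were taken at E14.5 and at E18.5 from ENLWT and EnlT1/+ embryos, 3 libraries in each of the 4 groups. Foxd1 GC/+ drives Cre in stromal progenitors and replaces 1 copy of Foxd1, so all Foxd1 groups, controls included, had 1 working Foxd1 allele. Whole Foxd1 kidneys (3 ENLWT and 3 EnlT1/+ libraries) and sorted tdT+ Foxd1-lineage cells (4 and 4) were taken at E18.5. The sort collects every descendant of a cell that once expressed Cre, so the sorted Six2 libraries held nephron cells of several ages as well as progenitors. No source used here ties a library to a litter, and p-values therefore measure the spread between the libraries.

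In these bulk samples, fewer cells of a type and less RNA per cell cannot be told apart. Library totals ran from 2557443 counts in a sorted Foxd1 library to 157266455 in a whole Six2 kidney, so values from sorted Foxd1 cells carry the largest counting error. Mllt1 differed by -0.33 to -0.02 (log2 fold change) between mutant and control in the 6 genotype comparisons, which does not check a change of a few codons. Levels are given in CPM, a count relative to the size of its library, corrected by TMM within each table. Six2, the progenitor marker, averaged 862 CPM in E14.5 ENLWT sorted Six2 cells and 15.5 CPM in E18.5 ENLWT sorted Foxd1 cells. These values differ in age as well as lineage, and their tables were scaled separately. All 9 stroma markers were higher in ENLWT sorted Foxd1 cells than in ENLWT sorted Six2 cells of the same age, E18.5. Foxd1 itself averaged 67.7 CPM in the former and 37.5 CPM in the latter, and 144 CPM in E14.5 ENLWT sorted Six2 cells. Within the whole Six2 kidneys, the 2 ENLWT libraries were 1 male and 1 female, the T1 libraries were male and the T3 libraries female by their Xist and Ddx3y counts. All 7 genes were higher in the female than in the male ENLWT library, so values from whole Six2 kidneys are given below with and without a term for sex. That term rests on the difference between the 2 ENLWT libraries alone, since each mutant group held 1 sex. Sex therefore cannot be told apart from any other difference between these 2 libraries. This limit holds for every value and adjusted p below that was fitted with the term in whole Six2 kidneys.

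As background, Wnt9b from the ureteric bud induces progenitors through beta-catenin to express Wnt4, a secreted signal that drives the mesenchyme to become epithelium. Pax2 and Pax8 are paired-box transcription factors with overlapping roles in building the nephron, and Lhx1 is a LIM homeobox factor needed to shape the renal vesicle. Osr2 is an odd-skipped zinc finger factor, Tmem100 is a membrane protein found in renal vesicles and in endothelium, and Ccnd1 encodes cyclin D1, which promotes entry into the cell cycle. Several of the 7 are not confined to the nephron: Pax2, Pax8, Lhx1 and Ccnd1 are also expressed in the ureteric epithelium, and Wnt4 in the medullary stroma.

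Gene positions follow GENCODE vM21 on GRCm38, each gene being protein-coding. Wnt4 (ENSMUSG00000036856) lies on chr4:137277489-137299726 and Pax2 (ENSMUSG00000004231) on chr19:44756045-44837871, both on the plus strand. Pax8 (ENSMUSG00000026976) lies on chr2:24420560-24475599 and Lhx1 (ENSMUSG00000018698) on chr11:84518284-84525535, both on the minus strand. Osr2 (ENSMUSG00000022330) lies on chr15:35296098-35303305 and Tmem100 (ENSMUSG00000069763) on chr11:90030348-90036508, both on the plus strand. Ccnd1 (ENSMUSG00000070348) lies on chr7:144929931-144939925, on the minus strand. Reads were counted without regard to strand, and 23.4% of the Ccnd1 exon length overlaps LTO1 and 6.06% of the Pax8 exon length overlaps Gm13415 on the opposite strand, so part of those counts is uncertain.

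RefSeq promoter windows were given for Wnt4, Pax2, Pax8 and Lhx1, that is 4 of the 7 genes. The 3 below were picked by their changes in T1 sorted Six2 cells at E18.5, where Wnt4 rose, Lhx1 fell and Pax8 changed by less than 1.5-fold. Pax2, which rose there too, is not printed. The stretches differ in length, and a link between their letters and these changes was not tested. Each runs 5′ to 3′ on the gene's own strand and stops before the GENCODE gene start (GRCm38.p6): Wnt4 at chr4:137277385-137277488, Lhx1 at chr11:84525536-84525784 and Pax8 at chr2:24475600-24475849. Capitals mark matches, on either strand, to CTTTGA or CTTTGT (cores of the TCF/LEF motif), GGGCGG (the GC box) or TATAAA (the TATA box), and adjoining GC boxes may overlap.
Wnt4: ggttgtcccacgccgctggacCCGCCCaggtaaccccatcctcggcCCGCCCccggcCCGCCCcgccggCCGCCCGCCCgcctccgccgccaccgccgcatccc
Lhx1: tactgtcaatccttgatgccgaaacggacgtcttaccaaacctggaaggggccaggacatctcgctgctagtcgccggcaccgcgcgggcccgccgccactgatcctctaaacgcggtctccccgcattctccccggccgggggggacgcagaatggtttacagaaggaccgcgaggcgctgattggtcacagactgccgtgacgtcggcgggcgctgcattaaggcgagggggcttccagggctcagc
Pax8: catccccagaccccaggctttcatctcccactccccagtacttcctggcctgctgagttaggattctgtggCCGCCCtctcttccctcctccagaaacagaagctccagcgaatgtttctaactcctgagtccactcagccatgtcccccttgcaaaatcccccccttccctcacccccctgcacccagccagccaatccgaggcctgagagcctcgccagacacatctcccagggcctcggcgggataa

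The Wnt4 stretch held 5 GC boxes, the Pax8 stretch 1 and the Lhx1 stretch 0. Over the 250 bases before the RefSeq start, the Wnt4 window was 85.2% G or C and the Lhx1 window 64.8%, against a median of 52.4% over all 32851 RefSeq windows. Neither TCF/LEF core lay in the Wnt4, Lhx1 or Pax8 windows, while CTTTGT lay in 2 of the 3 Pax2 windows. Over all windows, CTTTGA was in 13.8%, CTTTGT in 16.5%, GGGCGG in 32.7% and TATAAA in 12.4%.

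A gene was called in a genotype comparison when edgeR's quasi-likelihood test gave a Benjamini-Hochberg adjusted p under 0.05 over all genes tested and the change was at least 1.5-fold. In whole Six2 kidneys, T1 raised Wnt4 and Tmem100, so 2 of the 7 rose (2.88% of all tested genes rose) and 0 fell (4.88%). T3, set against the same 2 controls, raised Wnt4 and Tmem100 and lowered Lhx1, so 2 rose (4.34% of all genes) and 1 fell (5.28%). Set against T1 directly, T3 kidneys had 0 of the 7 genes higher (0.00418% of all genes) and 0 lower (0%), with adjusted p of 0.70 or more for each of the 7.

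Sorted Six2-lineage cells differed by stage. At E14.5, 0 of the 7 rose in T1 cells (4.11% of all genes) and 2 fell, Lhx1 and Osr2 (2.28%). At E18.5, 4 rose, Wnt4, Pax2, Tmem100 and Ccnd1 (6.14%), and 1 fell, Lhx1 (5.54%).

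In sorted Foxd1-lineage cells, 3 rose, Osr2, Tmem100 and Wnt4 (3.63% of all genes), and 0 fell (2.18%). In whole Foxd1 kidneys, 1 rose, Tmem100 (2.65%), and 0 fell (7.53%). Without the 1.5-fold limit, 6 of the 7 rose in whole Foxd1 kidneys, all but Pax8, where 16.4% of all genes rose. The median log2 fold change over the 7 was 0.60 in E18.5 sorted Six2 cells and -0.02 at E14.5, beside medians over all genes of 0.02 and 0.0035.

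**Figure D1:**
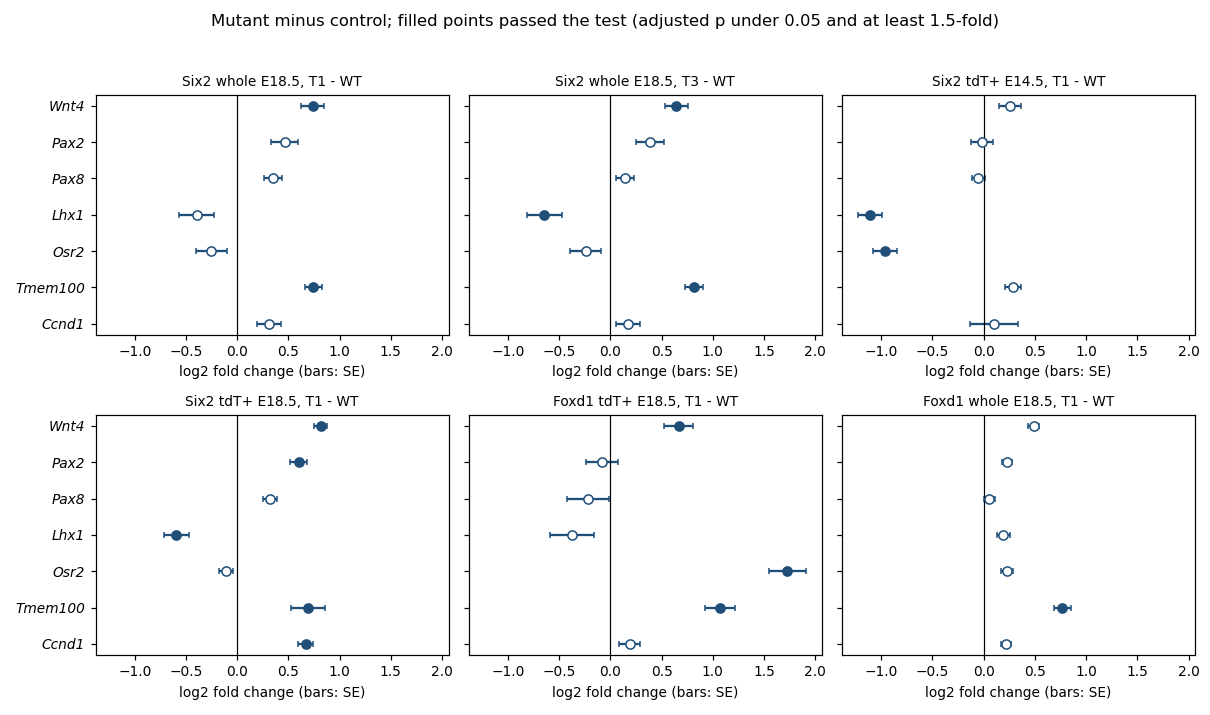
Log2 fold change (x axis, bars are the standard error) of each of the 7 genes (y axis) in the 6 comparisons of a mutant with its control. Filled points passed the test, and Tmem100 is filled in all panels but the E14.5 one, where its log2 fold change was 0.28.

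Wnt4, the ligand of the set, was higher in T1 than in control libraries in each genotype comparison at E18.5, in both lineages. In sorted Six2 cells at E18.5, Wnt4 stood at 236, 234 and 250 CPM in ENLWT and at 399, 445 and 419 CPM in T1. The groups did not overlap, and Wnt4 rose by 0.82 (log2 fold change, SE 0.07, adjusted p = 1.16e-06), or 1.76-fold. At E14.5 the values were 268, 217 and 296 CPM in ENLWT and 321, 325 and 278 CPM in T1, which overlapped, and the difference of 0.26 (SE 0.11) did not pass (adjusted p = 0.174).

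Whole Six2 kidneys had 99.8 and 126 CPM of Wnt4 in ENLWT, 183 and 193 in T1, and 187 and 166 in T3. All 4 mutant libraries lay above both controls, and Wnt4 rose by 0.74 (SE 0.11, adjusted p = 0.00409) in T1 and by 0.64 (SE 0.11, adjusted p = 0.0067) in T3. With a term for sex the T1 value was 0.91 (adjusted p = 0.000327) and the T3 value 0.49 (adjusted p = 0.00549), the latter under 1.5-fold. Without T3 replicate 1 the T3 value was 0.57 (adjusted p = 0.0528), and without ENLWT replicate 1 it was 0.49, again under 1.5-fold.

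Sorted Foxd1 cells held far less Wnt4 but showed a rise too: 30.8, 38.3, 27.2 and 20.4 CPM in ENLWT against 46.6, 47.0, 44.7 and 49.5 CPM in T1. Every T1 library exceeded every control, by 0.67 (SE 0.14, adjusted p = 0.00353), and without control replicate 4 the value was 0.54, under 1.5-fold. Whole Foxd1 kidneys had 101, 106 and 102 CPM in ENLWT and 150, 139 and 143 CPM in T1. These did not overlap either, and the change of 0.49 (SE 0.05, adjusted p = 1.11e-05) was 1.40-fold, below the limit for a call.

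Over the 11 groups, mean Wnt4 ran from 29.2 ± 7.45 CPM (SD, n = 4) in ENLWT sorted Foxd1 cells to 421 ± 23.2 CPM (SD, n = 3) in E18.5 T1 sorted Six2 cells. Tables were scaled separately, so this order across tables is a description only. Next from the top stood E14.5 T1, E14.5 ENLWT and E18.5 ENLWT sorted Six2 cells, whose neighbouring library ranges overlapped, then T1 and T3 whole Six2 kidneys, which overlapped too. T1 whole Foxd1 kidneys followed at 144 ± 5.69 CPM (SD, n = 3), then the ENLWT whole kidneys of the 2 Cre lines, which overlapped, and sorted Foxd1 cells stood last in T1 and ENLWT, without overlap between these 2 groups.

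**Figure D2:**
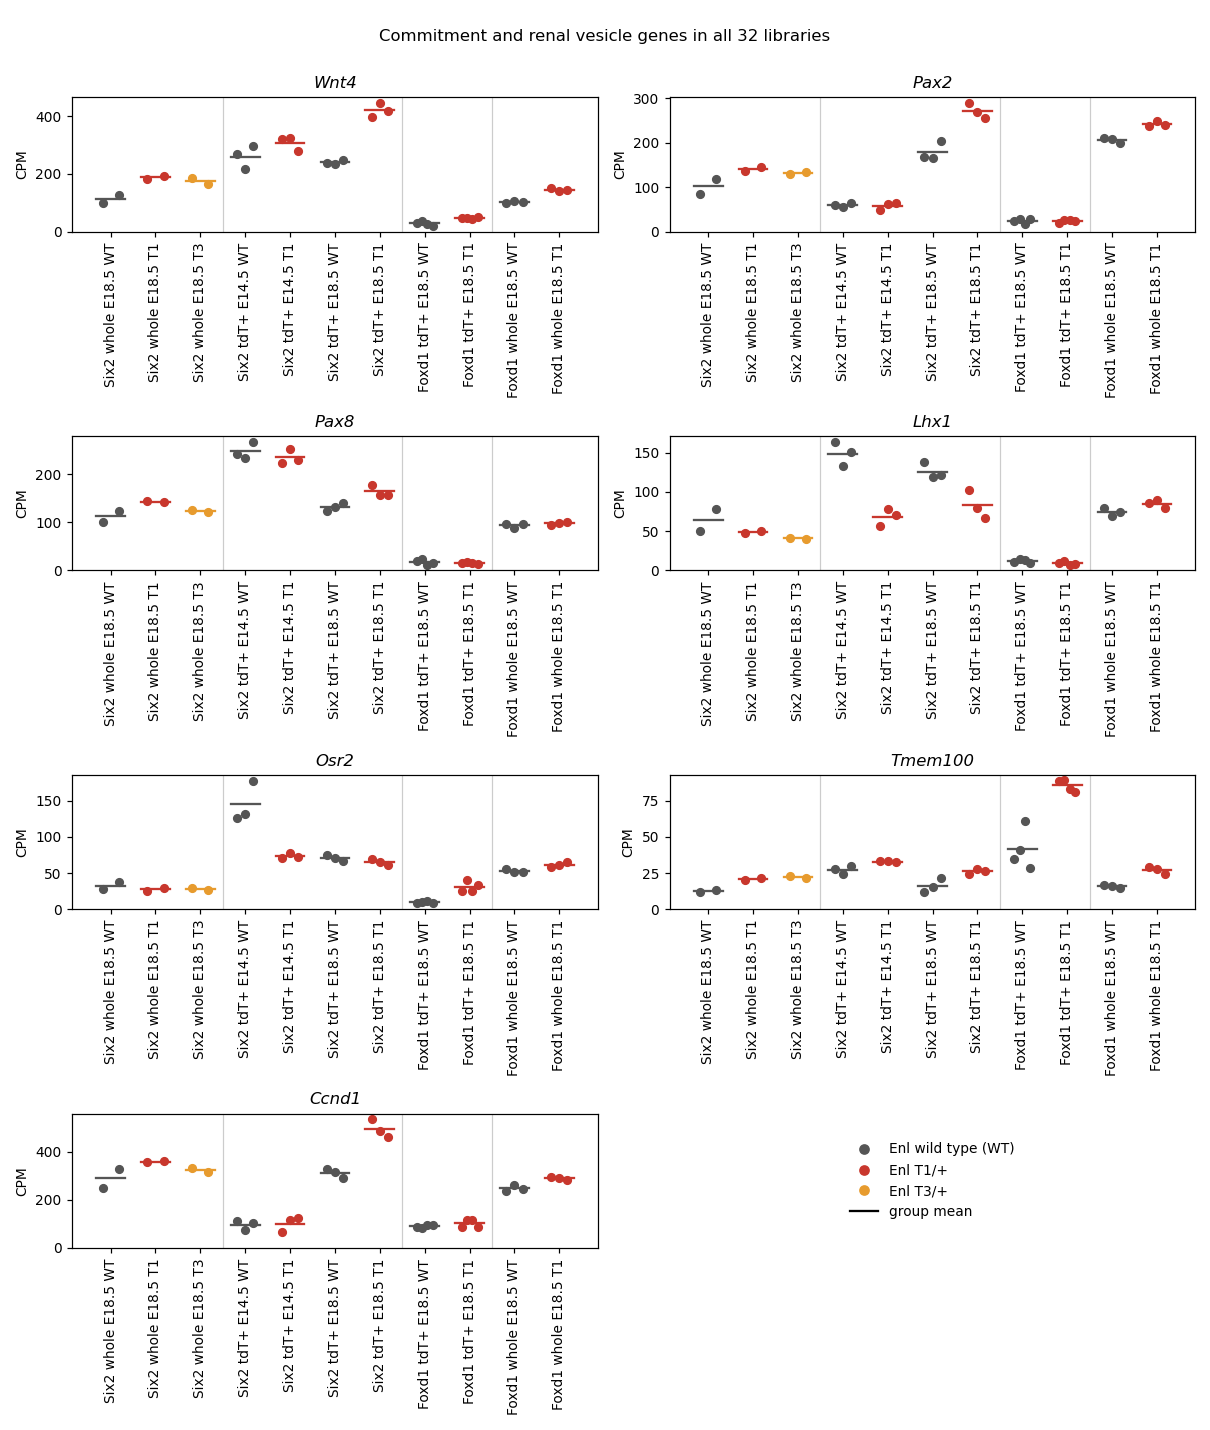
CPM (y axis, from 0) of each gene in every library (points) of the 11 groups (x axis), with a line at the group mean; grey vertical lines part tables that were scaled separately. Wnt4 reached 399 to 445 CPM in T1 sorted Six2 cells at E18.5, above every other group, while Tmem100 was highest in T1 sorted Foxd1 cells, at 81.5 to 89.2 CPM.

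Pax2, which acts from the earliest kidney mesenchyme on, was higher in T1 cells at E18.5 but not at E14.5. In sorted Six2 cells at E18.5 it stood at 169, 166 and 203 CPM in ENLWT and at 289, 268 and 257 CPM in T1, with no overlap. The rise was 0.60 (SE 0.08, adjusted p = 0.000146), just past 1.5-fold, and fell under that limit without any 1 of T1 replicate 1 (0.56), ENLWT replicate 1 (0.56) or ENLWT replicate 2 (0.55). At E14.5 the values of 60.5, 54.2 and 64.9 CPM in ENLWT and 49.0, 63.0 and 63.5 CPM in T1 overlapped, with a difference of -0.02 (SE 0.11, adjusted p = 0.946).

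In whole Six2 kidneys, Pax2 stood at 85.0 and 118 CPM in ENLWT, 135 and 145 in T1, and 131 and 135 in T3. All mutants were above both controls, but the differences of 0.46 (adjusted p = 0.0615) and 0.38 (adjusted p = 0.0962) did not pass. With a term for sex, Pax2 reached 0.72 (adjusted p = 0.000308) in T1, which passed, and 0.17 (adjusted p = 0.103) in T3. Without ENLWT replicate 2, the female control, both passed at 0.74 in T1 and 0.66 in T3.

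Sorted Foxd1 cells held 17.5 to 28.6 CPM of Pax2 in ENLWT and 18.3 to 26.2 CPM in T1, 43 to 97 counts per library, and the groups overlapped (log2 fold change -0.08, SE 0.16, adjusted p = 0.817). Whole Foxd1 kidneys had 211, 209 and 199 CPM in ENLWT and 238, 248 and 240 CPM in T1, a difference of 0.23 (SE 0.05, adjusted p = 0.00315) that was under 1.5-fold. The groups there did not overlap.

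Pax8, the partner of Pax2, was called in none of the 6 genotype comparisons. Sorted Six2 cells at E18.5 had 124, 131 and 141 CPM in ENLWT and 178, 156 and 157 CPM in T1. They did not overlap, and the change of 0.32 (SE 0.07, adjusted p = 0.00584) was 1.25-fold, below the limit for a call. At E14.5 the ranges of 233 to 267 CPM in ENLWT and 224 to 253 CPM in T1 overlapped (log2 fold change -0.05, SE 0.06, adjusted p = 0.664).

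Whole Six2 kidneys had 101 and 123 CPM of Pax8 in ENLWT, 143 and 142 in T1, and 126 and 122 in T3. Only the T1 libraries stood clear of the controls, by 0.35 (SE 0.09, adjusted p = 0.0398), again under 1.5-fold, and the T3 difference was 0.14 (adjusted p = 0.333). With a term for sex these were 0.50 (adjusted p = 0.000858), still under 1.5-fold, and 0.0078 (adjusted p = 0.937). Neither sorted Foxd1 cells (10.6 to 23.6 CPM in ENLWT, 12.4 to 16.8 CPM in T1) nor whole Foxd1 kidneys (88.6 to 97.4 CPM and 94.6 to 100.1 CPM) showed separate groups, and their differences of -0.21 (adjusted p = 0.577) and 0.05 (adjusted p = 0.486) did not pass.

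Lhx1, in contrast to Wnt4, was lower in T1 Six2-lineage cells at both stages. At E14.5 it stood at 163, 132 and 151 CPM in ENLWT and at 56.7, 78.0 and 70.2 CPM in T1. No library overlapped, and Lhx1 fell by 1.11 (log2 fold change, SE 0.12, adjusted p = 0.000751), to 0.464 of the control level. At E18.5 the values were 138, 118 and 121 CPM in ENLWT and 102, 79.5 and 67.3 CPM in T1, again apart, and the fall was 0.59 (SE 0.12, adjusted p = 0.0032). That second call sat at the fold limit: the change was -0.57 without T1 replicate 2, -0.47 without T1 replicate 3 and -0.52 without ENLWT replicate 1, all under 1.5-fold, while the adjusted p ran up to 0.0206 in these 3 fits.

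In whole Six2 kidneys, Lhx1 stood at 50.5 and 77.9 CPM in ENLWT, 47.2 and 50.5 in T1, and 41.5 and 40.6 in T3. The T3 libraries were below both controls (-0.65, SE 0.17, adjusted p = 0.0393), while T1 touched the lower control (-0.39, SE 0.17, adjusted p = 0.195). The T3 call was lost in each of 5 fits that left out 1 library, all but the fit without ENLWT replicate 1, with values of -0.28 without ENLWT replicate 2 and -0.66 to -0.63 in the rest. With a term for sex the values were -0.93 (adjusted p = 0.000119) in T3 and -0.05 (adjusted p = 0.688) in T1, and the difference between T3 and T1 was -0.88 (adjusted p = 0.0244). That term rested on the single pair of ENLWT libraries, since each mutant group held 1 sex.

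Lhx1 in sorted Foxd1 cells was near the bottom of its range, with 20 to 51 counts per library and 7.27 to 15.03 CPM. The ENLWT values of 10.9, 15.03, 13.01 and 9.11 CPM overlapped those of T1 at 8.94, 12.4, 7.27 and 8.47 CPM (log2 fold change -0.37, SE 0.21, adjusted p = 0.316). In whole Foxd1 kidneys the direction was up, from 79.3, 69.4 and 74.8 CPM to 86.4, 89.3 and 79.9 CPM. These did not overlap, and the change of 0.19 (SE 0.06, adjusted p = 0.0289) was under 1.5-fold.

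Osr2 rose in Foxd1-lineage cells at E18.5 and fell in Six2-lineage cells at E14.5, an age without Foxd1-lineage libraries. Sorted Foxd1 cells had 8.69, 9.43, 10.98 and 8.75 CPM in ENLWT and 25.7, 39.9, 24.7 and 33.9 CPM in T1, from 24 to 32 counts and 68 to 119 counts per library. Every T1 library was far above the highest control, and Osr2 rose by 1.73 (log2 fold change, SE 0.18, adjusted p = 2.72e-06), or 3.31-fold. This was the largest genotype difference among the 7 genes, and it lay at the 99.4th percentile of all changes in that comparison.

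In sorted Six2 cells at E14.5, by contrast, Osr2 stood at 127, 132 and 178 CPM in ENLWT and at 70.7, 78.1 and 72.1 CPM in T1. No library overlapped, and Osr2 fell by 0.97 (SE 0.12, adjusted p = 0.0015). At E18.5 the values of 75.2, 71.4 and 66.8 CPM in ENLWT and 69.2, 65.8 and 61.8 CPM in T1 overlapped, with a difference of -0.11 (SE 0.07, adjusted p = 0.329). The E14.5 T1 libraries, at 70.7 to 78.1 CPM, overlapped the E18.5 controls, at 66.8 to 75.2 CPM.

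Whole kidneys showed little of either change in Osr2. Whole Six2 kidneys had 27.6 and 37.9 CPM in ENLWT, 25.8 and 29.3 in T1, and 29.6 and 25.9 in T3, with differences of -0.25 (adjusted p = 0.356) and -0.24 (adjusted p = 0.339). With a term for sex the T1 value was -0.0028 (adjusted p = 0.991) and the T3 value -0.45 (adjusted p = 0.0279), under 1.5-fold. Whole Foxd1 kidneys had 55.1, 51.6 and 51.2 CPM in ENLWT and 59.1, 60.6 and 65.4 CPM in T1. They did not overlap, and the change of 0.23 (SE 0.06, adjusted p = 0.00833) was under 1.5-fold.

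Tmem100, whose level was highest in stroma-derived cells, was higher in mutants in all 6 genotype comparisons and passed the test in 5. Sorted Foxd1 cells had 35.0, 41.0, 61.0 and 28.4 CPM in ENLWT and 89.0, 89.2, 83.2 and 81.5 CPM in T1. The T1 libraries were close to each other and above every control, and Tmem100 rose by 1.07 (SE 0.15, adjusted p = 6.47e-05), or 2.099-fold. Whole Foxd1 kidneys had 16.7, 16.1 and 14.9 CPM against 29.5, 27.5 and 24.3 CPM, a rise of 0.77 (SE 0.08, adjusted p = 9.86e-06) without overlap.

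Whole Six2 kidneys had 11.9 and 13.3 CPM of Tmem100 in ENLWT, 20.5 and 21.7 in T1, and 22.7 and 21.7 in T3. All mutants were above both controls, by 0.74 (SE 0.09, adjusted p = 0.00132) in T1 and 0.82 (SE 0.09, adjusted p = 0.000734) in T3. A term for sex left both calls in place, at 0.83 and 0.74.

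In sorted Six2 cells at E18.5, Tmem100 stood at 12.1, 15.1 and 21.8 CPM in ENLWT and at 24.5, 27.8 and 26.8 CPM in T1. The groups were apart, and the rise was 0.70 (SE 0.16, adjusted p = 0.00847). Without ENLWT replicate 1 it was 0.52 (adjusted p = 0.0149), under 1.5-fold. At E14.5 the values were 27.9, 24.7 and 29.7 CPM in ENLWT and 33.3, 33.2 and 32.4 CPM in T1, which did not overlap, but the difference of 0.28 (SE 0.08) missed the threshold (adjusted p = 0.0505) and was under 1.5-fold.

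Tmem100 is also an endothelial gene, and of 5 endothelial markers none was called in sorted Foxd1 cells or in any whole-kidney comparison. Their summed level in sorted Foxd1 cells was 148 to 286 CPM in ENLWT and 210 to 258 CPM in T1, which overlapped. All 5 had higher values in T1 sorted Six2 cells at E14.5, with Emcn called (1.36), and all 5 lower values at E18.5, with Pecam1 called (-0.94). Their summed level there was 6.42 to 7.54 CPM in ENLWT and 6.28 to 21.8 CPM in T1 at E14.5, and 36.4 to 43.4 CPM and 21.6 to 33.9 CPM at E18.5.

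Ccnd1 was higher in T1 sorted Six2 cells at E18.5, at 329, 316 and 290 CPM in ENLWT and 534, 485 and 461 CPM in T1. No library overlapped, and Ccnd1 rose by 0.67 (SE 0.07, adjusted p = 2.15e-05), or 1.59-fold. At E14.5 the levels were lower and more scattered, with 110, 73.1 and 103 CPM in ENLWT and 64.9, 117 and 123 CPM in T1. These overlapped, and the difference of 0.10 (SE 0.23, adjusted p = 0.846) changed sign when any 1 of T1 replicate 2, T1 replicate 3 or ENLWT replicate 2 was left out.

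No other comparison called Ccnd1. Whole Six2 kidneys had 249 and 328 CPM in ENLWT, 357 and 359 in T1, and 332 and 317 in T3, with differences of 0.31 (adjusted p = 0.139) and 0.17 (adjusted p = 0.387). With a term for sex the T1 value was 0.52 (adjusted p = 0.00112), still under 1.5-fold, and the T3 value -0.01. Sorted Foxd1 cells overlapped at 81.3 to 94.8 CPM in ENLWT and 87.0 to 118 CPM in T1 (0.19, SE 0.10, adjusted p = 0.278), and whole Foxd1 kidneys had 238, 262 and 246 CPM in ENLWT and 294, 289 and 284 CPM in T1 (0.22, SE 0.05, adjusted p = 0.00627), under 1.5-fold.

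How the 7 genes changed over normal development was read from the 3 E14.5 and 3 E18.5 libraries of ENLWT sorted Six2 cells. Calls were made at an adjusted p under 0.01 and at least 2-fold. The paper dissociated E14.5 kidneys briefly with trypsin and E18.5 kidneys for longer with collagenase II. Stage and dissociation therefore cannot be told apart in these values. Ccnd1 rose by 1.70 (SE 0.20, adjusted p = 2.05e-06) and Pax2 by 1.58 (SE 0.11, adjusted p = 5.21e-09), about 3-fold each, so 2 of the 7 rose (24.8% of all genes). Osr2 fell by 1.03 (SE 0.11, adjusted p = 5.13e-07), so 1 fell (20.6%). Pax8 differed by -0.90 (SE 0.07, adjusted p = 4.6e-08) and Tmem100 by -0.75 (SE 0.16, adjusted p = 0.000616), both under 2-fold, and the stages did not overlap for either.

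Wnt4 and Lhx1 overlapped between stages, with differences of -0.12 (SE 0.09, adjusted p = 0.279) and -0.24 (SE 0.14, adjusted p = 0.132). The Osr2 call sat at the fold limit and was lost, at -0.90, with size factors from RLE and with DESeq2, and without any 1 of 6 libraries, at -0.996 to -0.869. The 9 nephron segment markers, genes of podocytes and mature tubules, all rose from E14.5 to E18.5, with a median log2 fold change of 8.17, so the sorted cells of the 2 stages also differed in the nephron parts they held. The part of that shift in the members' changes was not tested.

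The T1 effect was then compared between stages by an interaction term, the log2 fold change at E18.5 minus that at E14.5. All 7 values were above 0, and 4 passed at an adjusted p under 0.05 (3.94% of all genes did in that direction), with 0 in the other direction (4.22%). Osr2 had the largest, at 0.87 (SE 0.15, adjusted p = 0.00248), since its fall at E14.5 had no counterpart at E18.5. Pax2 followed at 0.63 (SE 0.15, adjusted p = 0.0186), then Wnt4 at 0.57 (SE 0.13, adjusted p = 0.0182) and Pax8 at 0.38 (SE 0.10, adjusted p = 0.0379). The differences for Ccnd1 (0.58, SE 0.27, adjusted p = 0.234), Lhx1 (0.53, SE 0.20, adjusted p = 0.134) and Tmem100 (0.42, SE 0.22, adjusted p = 0.288) did not pass.

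Of these, the Osr2 difference passed without any 1 library (0.70 to 0.95). The Wnt4 call was lost without any 1 of T1 replicates 2 and 3 and ENLWT replicates 1 and 2 of E18.5 (adjusted p up to 0.0806), and the Pax2 call without T1 replicates 1 or 2 or ENLWT replicates 1 or 2 of E18.5 (up to 0.0771). The Pax8 call was lost in 10 of the 12 fits that left out 1 library (adjusted p up to 0.155, at 0.27 without E18.5 T1 replicate 1) and with the replicate number as a block (adjusted p = 0.068).

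**Figure D3:**
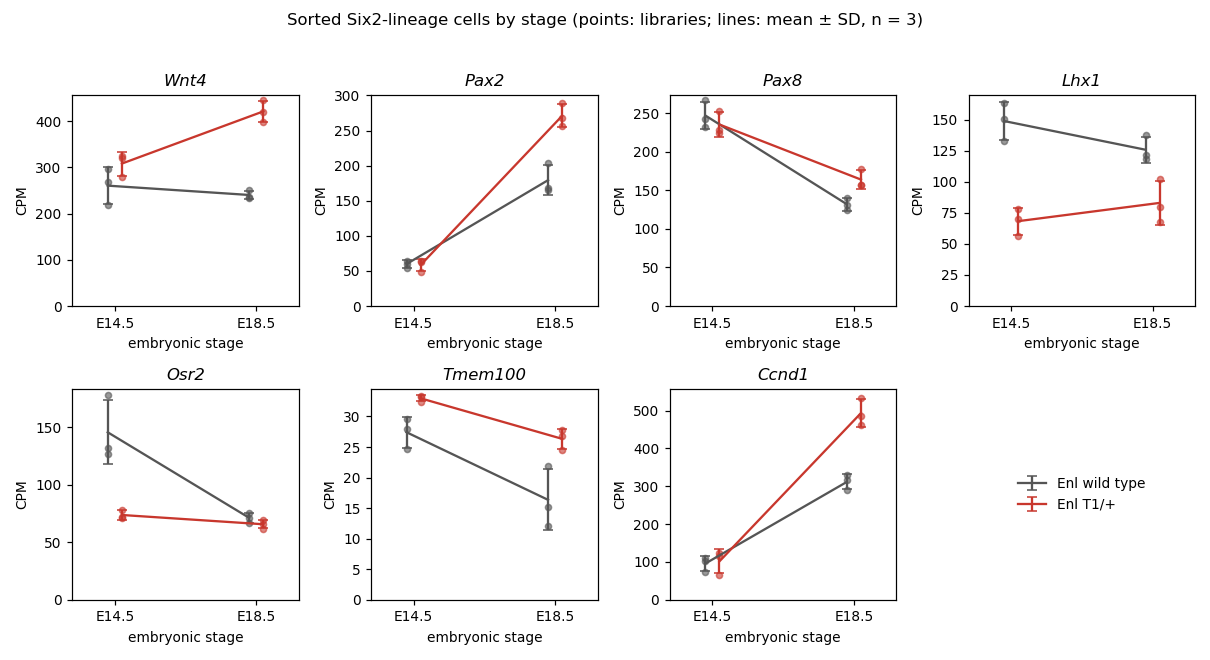
CPM (y axis, from 0) in sorted Six2-lineage cells at E14.5 and E18.5 (x axis), with library values as points and lines through the mean with SD (n = 3) for ENLWT and T1. The Wnt4 lines part with age, to 240 CPM in ENLWT and 421 CPM in T1 at E18.5, whereas the Osr2 lines, 146 and 73.7 CPM at E14.5, come together at 71.2 and 65.6 CPM.

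Between lineages at E18.5, ENLWT sorted Foxd1 cells had lower levels than ENLWT sorted Six2 cells for 6 of the 7 genes (28.2% of all genes were lower) and a higher level of 1, Tmem100 (27.2%), at an adjusted p under 0.01 and 2-fold. Lhx1 was lower by 3.18 (log2, SE 0.16), or 9.07-fold, and Wnt4 by 2.82 (SE 0.11), or 7.06-fold. Osr2, Pax8 and Pax2 were each lower by 2.72, 2.71 and 2.67, and Ccnd1 by 1.60 (SE 0.10). Tmem100 was higher by 1.52 (SE 0.19, adjusted p = 2.16e-07), or 2.87-fold. The median over all genes in this comparison was -0.10. Foxd1 libraries were read in paired reads of another length than Six2 libraries, so lineage and sequencing run cannot be told apart here. By Xist and Ddx3y counts, all sorted Foxd1 libraries were male, while the sorted Six2 libraries of E18.5 held both sexes. The Cre alleles differed as well. The paper cites aberrant Six3 expression from Six2-TGC, and Foxd1 GC/+ lacks a working Foxd1 copy. Lineage cannot be told apart from these alleles either.

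Per exon length (RPKM, the CPM divided by the exon length in kilobases), which allows genes to be set side by side, ENLWT sorted Six2 cells at E18.5 held 66.1 ± 4.23 of Ccnd1 (SD, n = 3) and 57.2 ± 2.03 of Wnt4, whose library ranges did not overlap. Pax2 (33.2 ± 3.87) and Lhx1 (30.9 ± 2.54) came next and overlapped, as did Pax8 (21.8 ± 1.35) and Osr2 (19.6 ± 1.16), and Tmem100 was lowest at 9.26 ± 2.81. In ENLWT sorted Foxd1 cells Tmem100 instead stood highest, at 23.4 ± 7.96 RPKM (SD, n = 4), beside Ccnd1 at 19.1 ± 1.32, and the other 5 genes lay between 2.61 and 6.96 RPKM.

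The T1 effect differed between the lineages for 3 genes, by an interaction term read as the effect in Foxd1-lineage cells minus that in Six2-lineage cells. Osr2 was the 1 gene higher in the Foxd1 lineage (8.25% of all genes), by 1.83 (SE 0.19, adjusted p = 4.78e-07). Pax2, by -0.70 (SE 0.18, adjusted p = 0.01), and Ccnd1, by -0.50 (SE 0.14, adjusted p = 0.014), were the 2 lower ones (7.63%).

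The effects on Wnt4 differed by -0.17 (SE 0.16, adjusted p = 0.55) and those on Tmem100 by 0.36 (SE 0.25, adjusted p = 0.388), and neither difference passed for this pair, which rose in both lineages. Pax8 (-0.56, SE 0.21, adjusted p = 0.081) and Lhx1 (0.20, SE 0.27, adjusted p = 0.70) did not pass either, although Pax8 passed without the filter on low counts (-0.54, adjusted p = 0.027) and with DESeq2 (-0.57, adjusted p = 0.0312).

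**Figure D4:**
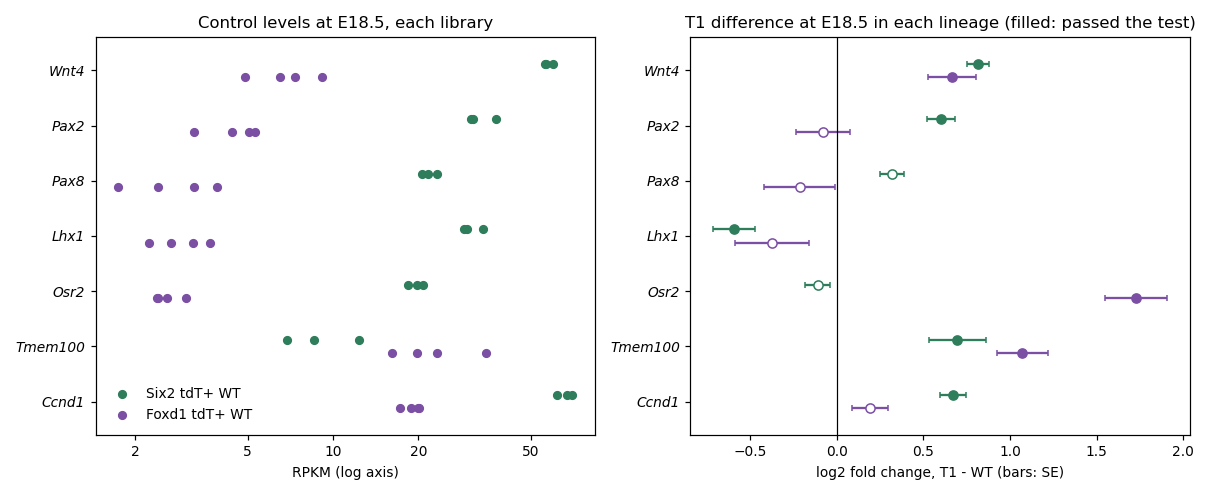
Left, RPKM (log axis) of each gene in the ENLWT libraries of sorted Six2 and Foxd1 cells at E18.5, scaled within each table; right, log2 fold change of T1 over ENLWT with its standard error in each lineage, filled where it passed the test. Osr2 stands at 1.73 in Foxd1-lineage and -0.11 in Six2-lineage cells, while Wnt4 and Tmem100 are filled in both.

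Another 17 genes of pretubular aggregates and renal vesicles, listed with earlier results of these data known, gave counts of the same kind. The paper names Sfrp2, Bmper and Frzb among them as raised in mutant samples, so their rises here are no separate evidence. In whole Six2 kidneys T1 raised 2 of 17 (2.88% of all genes rose) and lowered 0 (4.88%). The 2 were Sfrp2 (1.03), a secreted Wnt modulator, and Bmper (0.80), a BMP-binding protein. T3 raised 3 (4.34%), led by Fgf8 (1.33) and Sfrp2 (0.85), and lowered 1 (5.28%). In sorted Six2 cells at E14.5, T1 raised 2 (4.11%), Frzb (0.77) and Greb1 (0.60). It lowered 3 (2.28%), the Notch ligand Dll1 (-0.82) among them. At E18.5 it raised 5 (6.14%), led by Bmp2 (1.45) and Sfrp2 (1.33), and lowered 0 (5.54%).

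The interaction of stage and genotype was above 0 and passed for 7 of the 17 (3.94% of all genes), led by Sfrp2 (1.36) and Emx2 (1.09). It passed below 0 for 0 (4.22%). In sorted Foxd1 cells 5 of 15 tested rose (3.63%), led by Bmper (1.94) and Sfrp2 (1.26), and 1 fell (2.18%), the Wnt inhibitor Dkk1 (-1.18). In whole Foxd1 kidneys 4 rose (2.65%), led by Bmper (1.21) and Cdh4 (0.67), and 0 fell (7.53%). The list's median log2 fold change was 0.27 in T1 and 0.08 in T3 whole Six2 kidneys, 0.02 in E14.5 and 0.28 in E18.5 sorted Six2 cells, 0.33 in sorted Foxd1 cells and 0.11 in whole Foxd1 kidneys, beside medians over all genes between -0.01 and 0.02.

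Of 13 canonical Wnt components and targets, at most 1 was called in either direction in any genotype comparison. These were Nkd1 (0.62) and Tcf7l1 (-0.78) in sorted Six2 cells at E14.5, and Wnt9b at E18.5. Wnt9b was called in sorted Six2 cells (-3.91) and in T3 whole kidneys (-0.78). It comes from the ureteric bud, and the part of ureteric cells in its falls was not tested. Axin2, a common readout of the pathway, was chosen here after its values were seen: it differed by -0.09 in T1 and -0.08 in T3 whole Six2 kidneys, 0.11 and 0.23 in sorted Six2 cells at E14.5 and E18.5, 0.33 in sorted Foxd1 cells and 0.40 in whole Foxd1 kidneys, and none of these was called.

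Markers of other cell types moved with some of these results. In sorted Six2 cells, 7 of 9 stroma markers rose in T1 at E14.5 (summed level 506 to 658 CPM in ENLWT, 951 to 1864 in T1) and 6 of 9 at E18.5 (334 to 571 and 820 to 952 CPM). Foxd1, the marker of stromal progenitors, fell at both stages (-0.96 and -1.93), and Tcf21, a mesenchymal transcription factor, fell at E18.5 (-0.93), while the matrix proteoglycan genes Dcn (2.73 and 1.54) and Lum (2.69 and 2.03) led the rises. At E18.5 all 5 red cell markers rose as well (104 to 210 and 1550 to 2274 CPM), as did 3 of 5 macrophage markers (30.5 to 33.8 and 54.7 to 67.4 CPM), while all 9 nephron segment markers fell (3584 to 4414 and 554 to 656 CPM). Of 8 tested ureteric markers at E18.5, 2 rose, Hoxb7 (1.69) and Wnt11 (1.06), and 3 fell, led by Aqp2 (-1.70) and Calb1 (-0.99). Values were lower in T1 for 5 of the 8. The list's summed level was 76.5 to 86.7 CPM in ENLWT and 109 to 126 CPM in T1. Hoxb7 stood at 16.3 to 20.5 CPM in ENLWT and 54.1 to 60.9 CPM in T1, and Wnt11 at 7.70 to 10.7 and 17.4 to 19.2 CPM. The paper reports Hox genes and Wnt11 as raised in the sorted mutant cells. Whether the summed rise reflects ureteric cells was not tested. Of 10 progenitor genes, 7 fell at each stage, with a median of -0.91 at E14.5 and -1.13 at E18.5. The part of these shifts in the changes of Wnt4, Pax2, Lhx1, Osr2, Tmem100 and Ccnd1 was not tested.

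In whole Six2 kidneys all 9 nephron segment markers fell and 4 of 5 macrophage markers rose in T1 and in T3, and 7 of 10 progenitor genes fell in each. Of 9 ureteric markers there, 1 fell in T1, the collecting duct water channel Aqp2 (-1.87), and 3 in T3, led by Aqp2 (-1.56) and Ret (-0.85), with summed levels of 696 to 825 CPM in ENLWT, 545 to 569 in T1 and 481 to 543 in T3. In sorted Foxd1 cells the nephron segment markers summed to 433 to 883 CPM in ENLWT and 444 to 514 CPM in T1, with 4 of 8 lower, so the sorted cells held nephron transcripts in both genotypes. Progenitor genes summed to 345 to 443 CPM in ENLWT and 348 to 372 CPM in T1, which overlapped, with 1 of 10 higher and 1 lower, and 4 of 5 macrophage markers rose. Of 9 stroma markers in sorted Foxd1 cells, 1 rose, Lum (1.14), and 2 fell, Tcf21 (-0.99) and Pdgfrb (-0.72). Their summed level was 7199 to 9837 CPM in ENLWT and 7383 to 8346 CPM in T1, which overlapped. The part of other cells, or of a shift among stromal cells, in the levels of the 7 genes there was not tested. In whole Foxd1 kidneys 5 of 10 progenitor genes rose, with a median of 0.57, and 4 of 9 nephron segment markers fell. Ureteric markers summed to 856 to 966 CPM in ENLWT and 598 to 646 CPM in T1 whole Foxd1 kidneys, where Aqp2 fell (-1.92) and Ret, a receptor of the ureteric tips, rose (0.72). In sorted Foxd1 cells they summed to 155 to 202 CPM and 125 to 153 CPM, and Aqp2 fell (-3.59), 1 of 5 tested. The part of the ureteric shift in the values of Pax2, Pax8, Lhx1 and Ccnd1 was not tested.

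**Figure D5:**
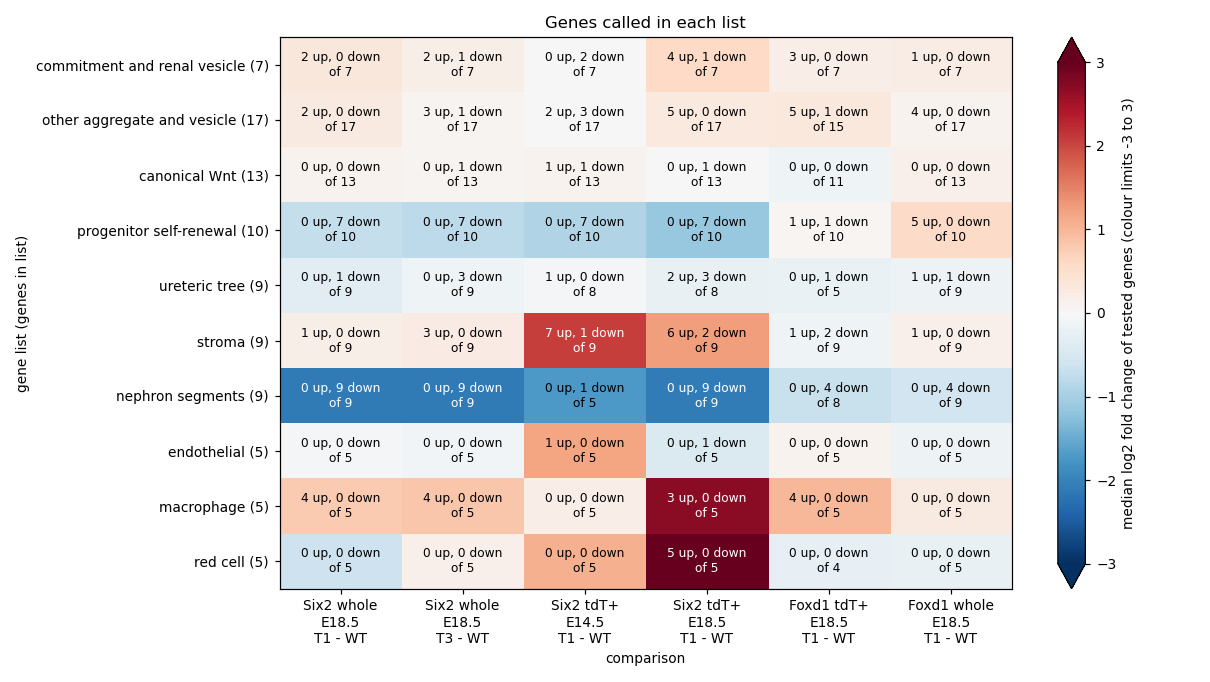
Genes called up and down of those tested in each list (rows) and genotype comparison (columns), with colour for the list's median log2 fold change. The 7 commitment and vesicle genes and the progenitor genes differ in colour in sorted Six2 cells at E18.5, with medians of 0.60 and -1.13, and the red cell list has the darkest field there.

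Genes with a pattern like each member were sought among 16423 genes. The measure was the root mean square difference of log2 mean CPM over the 11 groups, each gene centred on its own mean. These groups span tables that were scaled separately and made with different kits, so the likeness is a description only. Shared regulation was not tested. Nearest to Wnt4 were Fam169a (0.18), Tmem35a (0.28) and Tnfrsf19 (0.31), and nearest to Ccnd1 were Synrg (0.14), Clasp2 (0.16) and Slc7a2 (0.19). Pax2 was followed by Fbxl19 (0.30), Rybp (0.31) and 4930426D05Rik (0.32), Pax8 by Gm10254 (0.20), Gm11893 (0.21) and Kbtbd8 (0.25), and Lhx1 by Rims4 (0.26) and Amph (0.32). For Tmem100 they were Gm15441 (0.28), 1810010H24Rik (0.29) and Ripk3 (0.31), and for Osr2 Etv4 (0.38), Capn6 (0.40) and Zfp365 (0.40), the loosest likeness of the 7.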

How the data were processed

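The authors mapped reads to mm10 with HISAT2 and counted them per gene with HTSeq without strand and with no minimum mapping quality; the deposited values are raw counts in 4 tables. Whole-kidney libraries came from a stranded kit and sorted-cell libraries from a low-input kit. Groups follow the labels. Counts were tested with edgeR 4.0.16 (quasi-likelihood test, TMM scaling, filterByExpr with a minimum count of 10) in R 4.3.3, with p-values adjusted by Benjamini-Hochberg over all tested genes; the study used edgeR's exact test, run here as an alternative. CPM values use TMM library sizes within a table. In sorted Foxd1 libraries 3 counts equal 0.841 to 1.22 CPM, in the others at most 0.0446 CPM. Of all identifiers, 356 had no GENCODE vM21 name. The test was checked on simulated data. The 7 genes were given by name, and the other lists hold known markers. The paper reports several genes of both kinds as changed in these data. Members and lists were chosen with earlier results of these data known. Genes named from a list are its 2 called genes of largest change in each direction. Same-numbered replicates did not deviate together (correlation of deviations -0.0791 to 0.139), so numbers were not treated as pairs. Single values of 2 genes outside the 7 are not reported here.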

Additional observations from a re-analysis of the deposited data

Results flagged for a closer look

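The T1 effect differed between stages, by the interaction term, for 4 genes: Osr2 by 0.87, Pax2 by 0.63, Wnt4 by 0.57 and Pax8 by 0.38. These are log2 fold changes at E18.5 minus E14.5 in sorted Six2-lineage cells, where 3.94% of all genes passed upward. The effect differed between lineages for 3: Osr2 by 1.83, Pax2 by -0.70 and Ccnd1 by -0.50 (Foxd1 minus Six2 lineage at E18.5). There 8.25% of all genes passed upward and 7.63% downward. In sorted Foxd1 cells, whose groups of 4 libraries were the only ones large enough for an outlier test, no member had a library that stood apart.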

How the results depend on the processing

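Over all alternatives, 1178 of the members' log2 fold changes kept their direction and side of the threshold, 20 newly passed, 49 no longer passed and 20 changed sign, all of the last from values that were not called. Those with another setting were, with sex as a covariate, T3 Ccnd1 (-0.0131), T3 minus T1 Tmem100 (-0.0879) and Osr2 (-0.447), and E14.5 Pax2 (0.0048), then E14.5 Pax2 by library size only (0.023) and Wnt4 from E14.5 to E18.5 with RLE and with DESeq2 (0.0162). Leaving out 1 library gave Osr2 from -0.459 to 0.0201 (T1), -0.449 to 0.0286 (T3) and -0.0943 to 0.104 (T3 minus T1), and T3 Ccnd1 from -0.0113 to 0.400. At E14.5 it gave Pax2 from -0.0868 to 0.0907, Pax8 from -0.107 to 0.0028 and Ccnd1 from -0.0624 to 0.337, and in sorted Foxd1 cells Pax2 from -0.189 to 0.0113.

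Counts of members moved as follows. For T3, 0 fell by library size only or from its 2 groups only, and 1 rose with sex; for T3 minus T1, 1 fell with sex. At E18.5, 0 fell by library size only. Over development 0 fell with RLE, DESeq2, the exact test or the 2 groups only, 2 by library size only and 3 with no fold threshold. With no fold threshold, 6 rose in whole Foxd1 kidneys. Leaving out 1 library gave 0 to 1 fallen in T1, T3, E18.5 sorted cells and development, 1 to 3 risen in T3, 2 to 4 risen at E18.5 and 1 to 4 for the stage interaction. Those over all genes that moved are given next, and the member counts are to be read beside them.

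Over all genes, no fold threshold gave 1201 up and 2192 down (T1), 1739 and 2450 (T3), 1429 and 1455 (E14.5), 2173 and 2430 (E18.5), 755 and 608 (sorted Foxd1), 3300 and 3432 (whole Foxd1) and 8235 down (development). T3 minus T1 gave 207 and 93 with no filter, 58 and 17 with DESeq2, 92 and 28 with sex and 177 and 44 with the exact test; the stage interaction 1787 down with DESeq2; lineages 6751 down with no filter. Leaving out 1 library gave 383 to 818 up and 707 to 1274 down (T1), 689 to 1290 up (T3), 0 to 12 up and 0 to 9 down (T3 minus T1) and 453 to 1027 up (stage interaction). The causes were not tested. Where a group of 2 lost a library, the lone sample was assumed to vary like the rest. With the replicate number as a block, Pax8 in the stage interaction (0.38) no longer passed, leaving 3 members, and no other member call changed. Sex could be fitted only in Six2 tables and between lineages. Depth limits most the sorted Foxd1 libraries, where the lowest member count was 20.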
